A study of Mus musculus with 26 samples.

Results

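Mammary cells of 3-month-old mice without Snai2 that had been sorted into a fraction labelled luminal-basal were compared with luminal cells sorted from the same pools of mice. The comparison took in 4 of the 26 libraries of the series, luminal-basal and luminal libraries from pool F82 and from pool F84, chosen by their labels and paired by the pool prefix of their names. The null mice were B6.129S1 animals homozygous for a LacZ allele of Snai2 (Snai2-LacZ/LacZ), the gene of the zinc-finger repressor also called Slug. Wild-type animals of the same strain and age gave basal and luminal fractions from pools F79 and F81, 4 libraries that were set beside the null ones, and both genotypes gave stromal fractions at that age. The series also holds 12-month-old null and wild-type mice, of which the luminal-basal and luminal libraries of null pools A6 and A5 are set beside the 3-month results, without a test.

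Each library came from the cells of 3 mice mixed before sorting, so n = 2 pools a group, and p-values measure the spread between pools rather than between mice. Glands had been minced and stored frozen before dissociation, and the sort used the surface proteins EpCAM and CD49f (the product of Itga6), so Epcam and Itga6 levels partly follow from the gates and are no finding. Krt5, Krt14 and Krt18, the markers of the fractions, were all read in both luminal-basal libraries, as given below. The gate that defined the luminal-basal fraction is not given in the labels. Null luminal-basal libraries held 7801146 and 9606607 counts, against 2951035 and 3085895 in null luminal libraries. The mitochondrial ribosomal RNAs took 30.7% and 27.9% of the luminal-basal counts and 22.2% and 24.4% of the luminal counts.

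The mammary duct has an inner luminal layer, which holds hormone-sensing cells and the precursors of milk-secreting cells, and an outer basal layer. Basal cells carry keratins 5 and 14 and the transcription factor p63, lie on the basement membrane, contract in answer to oxytocin as myoepithelium, and include cells with stem cell activity. In the wild-type gland Snai2 is known as a transcription factor of the basal layer, where it binds E-box sequences and represses epithelial genes. Each value pair below gives CPM (counts scaled for library size and composition, per 1e+06) in pool F82 and then F84 for null libraries, or in F79 and then F81 for wild-type libraries. Fold changes are log2 values ± SE from edgeR for luminal-basal over luminal, and adjusted p-values come from its quasi-likelihood test with Benjamini-Hochberg adjustment over 14718 genes, called at 0.05.

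Snai2 itself (ENSMUSG00000022676, GRCm38 chromosome 16, 14705852 to 14709385, plus strand, protein-coding) was nearly but not wholly unread in the null libraries. It had 44 and 0 counts in null luminal-basal cells and 0 counts in both null luminal libraries. Wild-type basal cells had 230 and 597 counts and wild-type luminal cells 7 and 13. The stromal libraries, which the fold change does not compare, had 4 and 0 counts in null and 121 and 64 counts in wild-type mice. The 44 counts made 6.14 CPM, against 45.7 and 36.5 CPM in wild-type basal cells, and they go against the label of the F82 luminal-basal library, which is called null here by its label only. The labels do not say which part of the gene the LacZ allele removed. Snai2 passed the test as higher in luminal-basal cells (adjusted p = 0.0140), at least 6.67-fold against a floor of 3 counts over the luminal group. That call rests on 1 library, since without it Snai2 had 0 counts in the 3 others (adjusted p = 1), and it was also lost without the F82 luminal library (adjusted p = 1).

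The same F82 luminal-basal library stood apart from that of F84 in genes of stromal cells. The 12 fibroblast genes examined, among them Col1a1, Dcn and Pdgfra, summed to 4607 CPM in F82 and 407 CPM in F84 luminal-basal cells, against 648.7 and 413 CPM in null luminal cells, 42970 and 48910 CPM in null stroma, and 777 and 805.7 CPM in wild-type basal cells. All 12 had reads in each of these libraries. Dcn, a collagen-binding proteoglycan, was at 1581 and 92.5 CPM and Pdgfra, a growth factor receptor of fibroblasts, at 136 and 2.67 CPM in the 2 luminal-basal libraries. Immediate-early genes, which respond to stress and handling, summed to 25700 CPM in F82 and 7806 CPM in F84 luminal-basal cells and to 5750 and 12330 CPM in null luminal cells. Log2 CPM of the luminal-basal libraries correlated over the genes tested at r = 0.911, below r = 0.951 for the luminal pair and 0.966 for the wild-type basal pair. The part of these differences in the results was not tested, and counts are therefore also given without each library.

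Of 14718 genes tested, 1765 (12.0%) differed between null luminal-basal and null luminal cells. Luminal-basal cells were higher in 1281 genes (8.70% of those tested) and lower in 484 (3.29%). The higher genes held nearly all basal keratin and contractile genes examined and the collagen IV chains Col4a1 and Col4a2, and the lower ones held the luminal keratins Krt18 and Krt19, the prolactin receptor Prlr, and secretory genes. In 1260 of the 1281 higher and 479 of the 484 lower genes, both luminal-basal libraries lay on the same side of both luminal libraries, which held for 25.2% (higher) and 18.7% (lower) of all genes tested. Separation thus came with nearly every call, so where it is given below for called genes it is no further finding. The median log2 fold change of all genes tested was 0.12 with TMM scaling and 0.04 with RLE scaling. With a library left out, 1697 genes were called without luminal-basal F82, 2652 without luminal-basal F84, 770 without luminal F82 and 737 without luminal F84, where the lone library is assumed to vary like the other groups. Of the 1697, 1246 were among the 1765, which is 70.6% of the 1765 and 73.4% of the 1697. Counts with a library left out are given in this order for each gene group. In sorted bulk RNA, fewer cells of a type and less RNA per cell cannot be told apart.

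Keratins and adhesion genes of the basal layer rose nearly as a group in luminal-basal cells: 17 of 18 members examined were higher, none was lower, and the median log2 fold change was 3.62, against 0.12 over all genes. Itga6, on which the gate was set, is 1 of the 17. Krt5, the type II keratin of basal cells, had 699 and 1682 CPM in null luminal-basal cells, against 69.7 and 47.2 CPM in null luminal cells (4.32 ± 0.61, adjusted p = 0.00216). Krt14, its partner keratin, had 551 and 1186 CPM against 49.8 and 36.9 CPM (4.27 ± 0.47, adjusted p = 0.000448). Both luminal-basal libraries were far above both luminal ones, with F84 the higher of the pair for each keratin. Trp63, which encodes p63, the master factor of basal epithelium, showed the opposite order of pools, with 445 and 186 CPM in luminal-basal and 28.9 and 7.26 CPM in luminal cells (4.26 ± 0.44, adjusted p = 0.000288). The groups did not overlap. Lama3, a chain of the anchoring laminin 332, had 451 and 566 CPM in luminal-basal cells, against 54.0 and 28.7 CPM in luminal cells (3.69 ± 0.33, adjusted p = 0.000123). Col17a1, the hemidesmosomal collagen XVII, had 371 and 558 CPM against 37.5 and 20.3 CPM (4.09 ± 0.47, adjusted p = 0.000572). The member that did not pass was Dst, the dystonin of hemidesmosomes (0.87 ± 0.28, adjusted p = 0.0682). With a library left out, 17, 13, 11 and 8 members were higher, and Krt5 missed the threshold without the F84 luminal library (3.82, adjusted p = 0.0704).

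**Figure D1:**
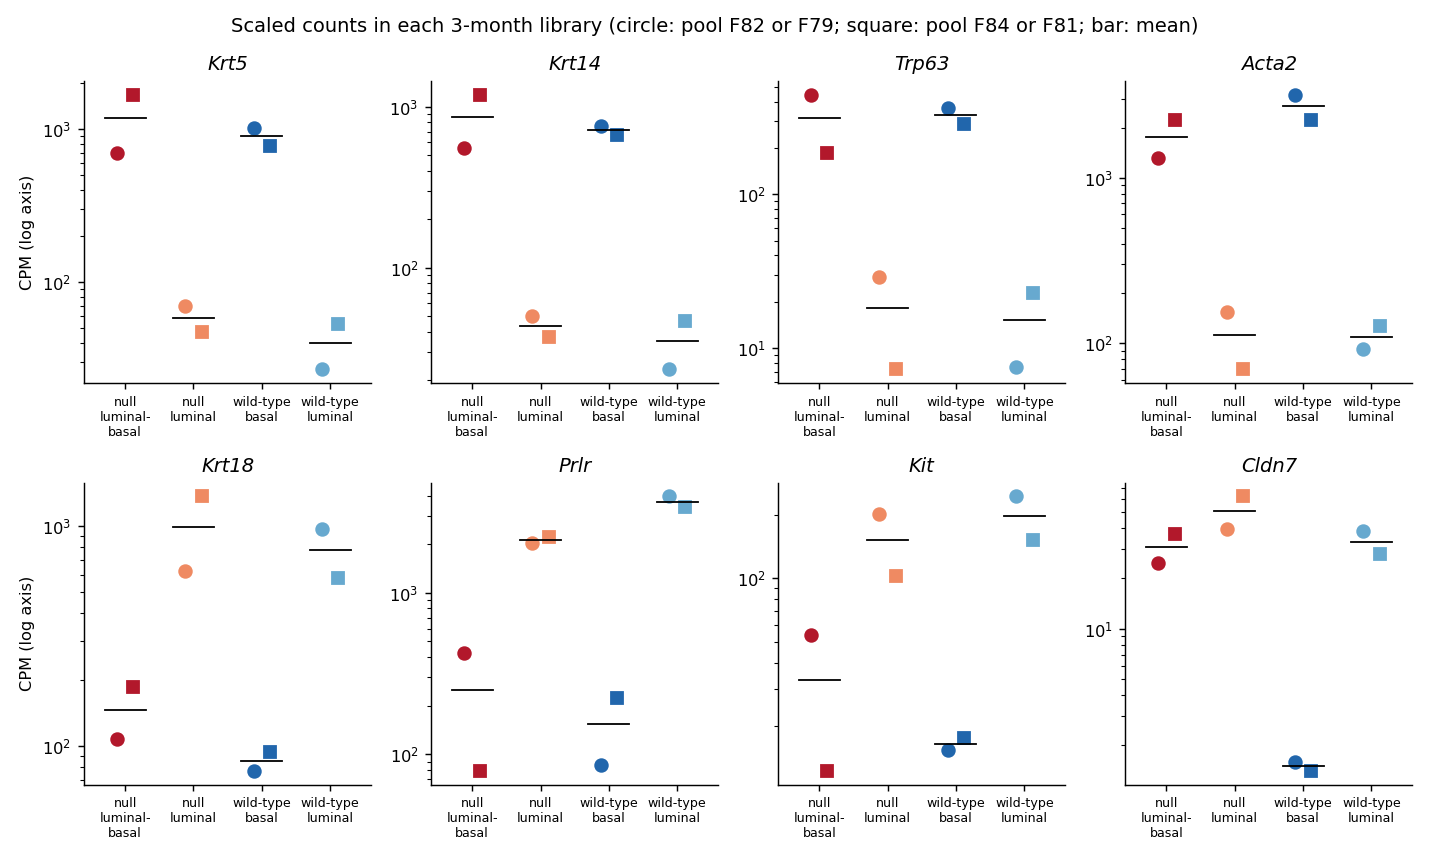
Scaled counts (CPM, vertical log axis) of 8 genes in the 3-month epithelial libraries, which stand in groups along the horizontal axis. Circles mark pool F82 (null) or F79 (wild type), squares F84 or F81, and bars the means. Krt5, Krt14, Trp63 and Acta2 lay high in null luminal-basal as in wild-type basal cells, Krt18, Prlr and Kit lay lower in both than in luminal cells, and Cldn7 stayed at 24.8 and 36.8 CPM in null luminal-basal cells, against 1.59 and 1.41 CPM in wild-type basal cells.

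The contractile program of myoepithelium was higher in 13 of 14 members, with a median of 3.69 and none lower. Acta2, smooth muscle actin, had 1310 and 2234 CPM in null luminal-basal cells, against 154 and 69.5 CPM in null luminal cells (4.18 ± 0.55, adjusted p = 0.00121). Myl9, a regulatory myosin light chain, had 216 and 362 CPM against 23.0 and 10.3 CPM (4.20 ± 0.52, adjusted p = 0.00104). Tagln (transgelin), Smtn (smoothelin) and Cald1 (caldesmon), which bind actin filaments, rose by 3.65, 3.01 and 3.24, with SE of 0.45, 0.37 and 0.43. In all 5 genes both luminal-basal libraries were above both luminal ones, and for Acta2, Myl9, Tagln and Smtn the F84 library was the higher of the luminal-basal pair. Oxtr, the oxytocin receptor that starts myoepithelial contraction, had the reverse order, at 638 and 165 CPM in luminal-basal and 76.4 and 16.0 CPM in luminal cells (3.19 ± 0.45, adjusted p = 0.00127). It lay at 2078 and 781 CPM in wild-type basal cells. Myocd, the coactivator of smooth muscle genes, did not pass (0.97 ± 1.19, adjusted p = 0.669) at 2.09 and 1.04 CPM in luminal-basal and 0.258 and 1.21 CPM in luminal cells. Leaving out a library, 12, 13, 7 and 7 members were higher.

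Among matrix genes, chains of collagen IV and laminin alpha 1 rose in both pools, while nidogens and a collagen I chain were high in 1 luminal-basal library. Of 18 matrix genes 10 were higher and none lower, with a median of 2.66. Col4a1, a chain of basement membrane collagen IV, had 259 and 480 CPM in null luminal-basal cells, against 28.9 and 46.3 CPM in null luminal cells (3.27 ± 0.29, adjusted p = 0.000123). Col4a2, its partner chain, had 306 and 378 CPM against 33.8 and 35.4 CPM (3.30 ± 0.28, adjusted p = 0.000120). Both chains stood apart between the fractions in each pool. Lama1, the laminin alpha 1 chain, had 104 and 144 CPM against 11.1 and 6.05 CPM (3.88 ± 0.42, adjusted p = 0.000315). Postn, the matrix protein periostin, had 2283 and 1157 CPM against 122 and 89.5 CPM (3.996 ± 0.45, adjusted p = 0.000327). The 4 genes did not overlap between fractions, and without luminal-basal F82 Col4a1, Col4a2, Lama1 and Postn were called at 3.51, 3.47, 4.54 and 3.46. Col1a1, the interstitial collagen I of fibroblasts, had 404 and 41.0 CPM in luminal-basal and 49.3 and 60.5 CPM in luminal cells and did not pass (1.67 ± 0.84, adjusted p = 0.255). Only its F82 luminal-basal value stood above the luminal ones, the library in which the fibroblast genes summed to 4607 CPM. Nid1, a nidogen of the basement membrane chosen with Nid2 and Lama5 after their values were seen, had 457 and 38.5 CPM in luminal-basal and 36.7 and 23.3 CPM in luminal cells (2.62 ± 0.80, adjusted p = 0.0682), and was at 0.41 without luminal-basal F82 and 3.91 without luminal-basal F84 (adjusted p = 0.611 and 1.44e-08). Nid2 had 13.1 and 0.464 CPM against 1.29 and 1.51 CPM (1.90 ± 1.06, adjusted p = 0.309), and was at -1.49 and 3.19 without the same libraries (adjusted p = 0.287 and 2.54e-05). Lama5, the laminin alpha 5 chain, overlapped between fractions and did not pass (-0.45 ± 0.42, adjusted p = 0.565). The number of higher matrix genes was 10, 17, 9 and 10 with a library left out.

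Among 12 integrins and focal adhesion proteins, 6 were higher and none lower, with a median of 0.83. Tns1, the adaptor tensin that ties integrins to actin, had 442 and 244 CPM in null luminal-basal cells, against 40.5 and 26.9 CPM in null luminal cells (3.32 ± 0.33, adjusted p = 0.000190). Itga5, the fibronectin receptor chain, was only modestly higher, with 38.2 and 84.9 CPM against 12.9 and 28.4 CPM (1.57 ± 0.25, adjusted p = 0.00166), and the 4 libraries did not overlap. Itga1, a collagen-binding chain, rose by 2.12 ± 0.43 (adjusted p = 0.00813) and Pxn, the adaptor paxillin, by 1.198 ± 0.25 (adjusted p = 0.00881). Itga1 missed the threshold without luminal-basal F82 (1.60, adjusted p = 0.0616) and without luminal F82 (1.41, adjusted p = 0.222). Pxn missed it without luminal F82 (1.23, adjusted p = 0.0887) and without luminal F84 (1.13, adjusted p = 0.114). Higher members numbered 7, 4, 2 and 3 with a library left out.

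Transcription factors of basal cells and of epithelial-mesenchymal transition gave 9 higher members of 20 and none lower, with a median of 2.40, Snai2 among the 9. Id4, an inhibitor of helix-loop-helix factors found in mammary basal cells, had 30.3 and 9.63 CPM in null luminal-basal cells, against 1.29 and 0.302 CPM in null luminal cells (4.57 ± 0.60, adjusted p = 0.000620). Irx4, an Iroquois homeobox factor, had 30.7 and 26.9 CPM against 1.81 and 0.605 CPM (4.58 ± 0.61, adjusted p = 0.000710). Mef2c, a MADS-box factor of muscle genes, had 41.6 and 13.7 CPM against 6.20 and 1.21 CPM (2.90 ± 0.43, adjusted p = 0.00125). In all 3 genes both luminal-basal values exceeded both luminal ones, and F82 was the higher luminal-basal library. The factors of the Snail and Zeb families did not pass apart from Snai2: Snai1, the closest relative of Snai2, had 8.51 and 2.32 CPM in luminal-basal and 1.29 and 0 CPM in luminal cells (3.00 ± 0.92, adjusted p = 0.0549). Zeb1 and Zeb2, repressors of E-cadherin chosen after their values were seen, were high in luminal-basal F82 alone of the 4 null libraries. Zeb1 had 59.5 and 2.21 CPM in luminal-basal and 6.71 and 3.02 CPM in luminal cells (2.11 ± 1.01, adjusted p = 0.229), and Zeb2 had 140 and 7.31 CPM against 12.4 and 8.47 CPM (2.25 ± 0.92, adjusted p = 0.164). Sox10, Sox9 and Nfib, which both layers of the gland are known to express, did not pass either (-0.57, -0.31 and 0.73). Leaving out a library, 7, 14, 4 and 7 members were higher, and 1 was lower without luminal-basal F82. The median was 0.87 without luminal-basal F82 and 1.29 without luminal F82.

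Luminal identity genes moved the other way, but unevenly. Of 16 genes common to luminal cells 7 were lower and none higher in luminal-basal cells, with a median of -1.61, and the gate gene Epcam was among the others. Krt18, the luminal keratin, had 108 and 184 CPM in null luminal-basal cells, against 622 and 1357 CPM in null luminal cells (-2.73 ± 0.43, adjusted p = 0.00235). Krt19 had 154 and 164 CPM against 998 and 1587 CPM (-3.03 ± 0.48, adjusted p = 0.00311), and Ehf, an ETS factor of glandular epithelium, 16.9 and 15.1 CPM against 141 and 139 CPM (-3.14 ± 0.48, adjusted p = 0.00237). The luminal-basal libraries lay below both luminal ones in each of these genes, yet above the 77.0 and 94.2 CPM of Krt18 and 42.1 and 59.9 CPM of Krt19 in wild-type basal cells. The null change minus the wild-type change was 0.47 ± 0.57 for Krt18 and 1.36 ± 0.64 for Krt19. Neither was called (quasi-likelihood test, unadjusted p = 0.431 and 0.0613). Krt7, another luminal keratin, fell by 3.07 with an SE of 0.50 (adjusted p = 0.00393), and missed the threshold without luminal F84 (-2.62, adjusted p = 0.0884). Krt8, the partner of Krt18, had 105 and 305 CPM against 516 and 1463 CPM (-2.27 ± 0.56, adjusted p = 0.0298). Krt8 lost its call without luminal-basal F82 (-1.85, adjusted p = 0.140), luminal F82 (-2.72, adjusted p = 0.102) or luminal F84 (-1.69, adjusted p = 0.356). Cdh1, which encodes E-cadherin and was chosen after its values were seen, did not pass, at 422 and 726 CPM in luminal-basal and 592 and 1112 CPM in luminal cells (-0.56 ± 0.41, adjusted p = 0.437). Lower members numbered 6, 6, 7 and 3 with a library left out, and the median was -0.69 without luminal F84.

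Genes of the hormone-sensing luminal lineage were lower in 8 of 14 tested members (1 of the 15 examined, Fgfr4, was too low to test), with none higher and a median of -2.22. Cited1, a coregulator of oestrogen receptor activity, had 9.90 and 2.55 CPM in null luminal-basal cells, against 206 and 48.4 CPM in null luminal cells (-4.33 ± 0.43, adjusted p = 0.000207). Prlr, the prolactin receptor, had 422 and 78.8 CPM against 2033 and 2233 CPM (-3.59 ± 0.63, adjusted p = 0.00642). Both luminal-basal libraries were below both luminal ones, although F82 still held 422 CPM of Prlr. Prom1, a membrane protein of hormone-sensing cells, had 11.6 and 8.36 CPM against 77.0 and 119.7 CPM (-3.32 ± 0.50, adjusted p = 0.00206). Wnt4, the Wnt ligand that progesterone induces, had 19.1 and 10.8 CPM against 70.2 and 75.3 CPM (-2.34 ± 0.42, adjusted p = 0.00444), and missed the threshold without luminal F84 (-1.91, adjusted p = 0.0737). The oestrogen receptor gene Esr1 and the progesterone receptor gene Pgr, chosen after their values were seen, fell by 2.49 and 2.11 (adjusted p = 0.00752 and 0.0398). Esr1 missed the threshold without luminal F84 (-2.16, adjusted p = 0.0726). Pgr missed it without luminal F82 (-2.76, adjusted p = 0.0959) and luminal F84 (-1.61, adjusted p = 0.277), and ran from -3.52 without luminal-basal F82 to -1.05 without luminal-basal F84. Gata3, a luminal transcription factor chosen after its values were seen, did not pass, with overlapping values of 67.2 and 38.8 CPM in luminal-basal and 72.3 and 43.8 CPM in luminal cells (-0.14 ± 0.43, adjusted p = 0.880). The number of lower members was 9, 8, 7 and 3 with a library left out.

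Secretory and progenitor genes of the luminal layer were lower in 8 of 16 tested members (Wap, of 17 examined, was too low to test), with none higher and a median of -2.09. Kit, the receptor tyrosine kinase that marks luminal progenitors, had 53.8 and 12.3 CPM in null luminal-basal cells, against 201 and 102 CPM in null luminal cells (-2.51 ± 0.37, adjusted p = 0.00117). Cd14, the lipopolysaccharide coreceptor, had 28.4 and 12.8 CPM against 184 and 65.6 CPM (-2.52 ± 0.34, adjusted p = 0.000714). Wfdc18, a whey acidic protein family member, had 14.4 and 34.9 CPM against 260.3 and 260 CPM (-3.43 ± 0.50, adjusted p = 0.00246). The groups did not overlap in these 3 genes. Trf, which encodes transferrin, fell by 1.81 with an SE of 0.36 (adjusted p = 0.00717), and missed the threshold without luminal F84 (-1.43, adjusted p = 0.142). Csn2, which encodes beta casein and was chosen after its values were seen, overlapped between fractions and did not pass, with 82 and 179.5 CPM in luminal-basal and 73.1 and 874 CPM in luminal cells (-1.09 ± 0.64, adjusted p = 0.330). Leaving out a library, 11, 7, 9 and 4 members were lower, with a median of -1.25 without luminal F84.

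Tight junction genes, which seal luminal cells at their apical side, were lower in 6 of 15 members and higher in none, with a median of -1.47, while wild-type basal cells were lower than wild-type luminal cells in 12 of the 15, with a median of -3.67. Cldn6 had 2.23 and 3.02 CPM in null luminal-basal cells, against 24.5 and 38.4 CPM in null luminal cells (-3.56 ± 0.62, adjusted p = 0.00293). Cgn, the junction adaptor cingulin, had 8.51 and 3.597 CPM against 47.5 and 42.0 CPM (-3.03 ± 0.57, adjusted p = 0.00613). Cldn1 and Cldn8 fell by 1.81 and 3.37, with SE of 0.35 and 0.79 (adjusted p = 0.00536 and 0.0169). Luminal-basal libraries were below the luminal libraries in all 4 genes, while the lower members numbered 5, 6, 3 and 0 with a library left out. Without luminal F84 the values were -3.00 for Cldn6, -2.29 for Cgn, -1.26 for Cldn1 and -2.93 for Cldn8 (adjusted p = 0.0836, 0.120, 0.150 and 0.166), and Cldn8 missed the threshold also without luminal F82 (-3.95, adjusted p = 0.0841). Claudins 7 and 4 and occludin did not pass. Cldn7 had 24.8 and 36.8 CPM in null luminal-basal cells and 39.8 and 62.0 CPM in null luminal cells (-0.72 ± 0.33, adjusted p = 0.201), against 1.59 and 1.41 CPM in wild-type basal cells and 38.5 and 27.9 CPM in wild-type luminal cells. Cldn4 and Ocln, the gene of occludin, were chosen after their values were seen. Cldn4 had 68.0 and 55.2 CPM in null luminal-basal and 112 and 237 CPM in null luminal cells (-1.47 ± 0.52, adjusted p = 0.110), against 2.18 and 7.10 CPM in wild-type basal cells. Ocln had 20.5 and 42.9 CPM in null luminal-basal and 41.1 and 95.5 CPM in null luminal cells (-1.08 ± 0.47, adjusted p = 0.172), against 0.794 and 4.04 CPM in wild-type basal cells. Both null luminal-basal libraries thus lay above both wild-type basal libraries in all 3 genes. The luminal-basal over luminal change in null glands minus the basal over luminal change in wild-type glands was 3.73 ± 0.52 for Cldn7 (adjusted p = 0.0608), 2.89 ± 0.77 for Cldn4 (adjusted p = 0.699) and 2.59 ± 0.72 for Ocln (adjusted p = 0.694), none past the threshold.

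Promoters of some luminal keratins and claudins are shown because Snai2 is known to bind the E-box CAGGTG, which reads CACCTG on the other strand. They were picked from promoters that held this E-box, so their matches are no finding. Krt7 and Epcam, picked in the same way, held 1 and 2 matches and are not shown. The 250 bases before the start of transcription (RefSeq, GRCm38.p6, printed 5′ to 3′ on the strand of the gene) were searched for these 6 letters on both strands, which is 1 motif since each is the other's reverse complement, and matches are in capitals.
Krt8 (chr15:102004343-102004592, minus strand): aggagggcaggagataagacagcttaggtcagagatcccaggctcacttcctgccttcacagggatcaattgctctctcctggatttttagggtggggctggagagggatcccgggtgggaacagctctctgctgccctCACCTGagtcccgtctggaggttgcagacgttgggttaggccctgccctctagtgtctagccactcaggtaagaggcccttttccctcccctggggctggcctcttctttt
Krt18 (chr15:102027966-102028215, plus strand): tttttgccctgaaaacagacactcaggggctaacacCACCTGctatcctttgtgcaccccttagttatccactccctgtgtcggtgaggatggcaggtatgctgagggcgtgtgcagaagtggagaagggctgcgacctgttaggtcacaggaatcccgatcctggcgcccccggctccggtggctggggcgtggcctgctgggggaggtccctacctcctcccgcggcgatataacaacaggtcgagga
Cldn4 (chr5:134946935-134947184, minus strand): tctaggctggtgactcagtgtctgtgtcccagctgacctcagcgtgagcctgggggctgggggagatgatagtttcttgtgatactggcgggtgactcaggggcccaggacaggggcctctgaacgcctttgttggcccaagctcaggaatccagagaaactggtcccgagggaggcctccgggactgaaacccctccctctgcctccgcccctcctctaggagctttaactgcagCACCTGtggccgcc
Cldn7 (chr11:69965171-69965420, plus strand): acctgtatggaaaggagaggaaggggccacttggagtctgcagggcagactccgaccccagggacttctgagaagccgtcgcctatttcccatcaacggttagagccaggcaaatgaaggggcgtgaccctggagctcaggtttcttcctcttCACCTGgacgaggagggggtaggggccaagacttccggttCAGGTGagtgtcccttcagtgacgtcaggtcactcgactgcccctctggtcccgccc
Of genes with a promoter in the table, the motif stood in 4 of 7 on the basal keratin and adhesion list, 1 of 10 contractile, 1 of 11 matrix, 8 of 9 common luminal, 7 of 12 hormone-sensing, 3 of 12 secretory and 6 of 12 tight junction genes, so that lists with many matches included 1 that rose and others that fell. Among all genes tested with a promoter the share was 18.8% (1909 of 10171), and it was 17.2% among all RefSeq windows of this length (5657 of 32851). It was 20.7% among genes higher in luminal-basal cells (192 of 926) and 29.6% among genes lower (101 of 341). A match is a description of letters and shows no binding. Krt8 and Krt18, with 1 match each, fell in luminal-basal cells as above, while Cldn4 and Cldn7, with 1 and 2 matches, did not pass.

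Notch signalling passes between neighbouring cells, ligand to receptor. The ligands Jag1, Jag2 and Dll1 rose and the receptors Notch1 and Notch3 fell in null luminal-basal cells: of 12 tested genes (14 examined, Hey2 and Nrarp too low to test) 4 were higher and 3 lower, with a median of 0.57. Jag1, a ligand, had 168 and 327 CPM in null luminal-basal cells, against 21.7 and 29.9 CPM in null luminal cells (3.22 ± 0.29, adjusted p = 0.000123). Dll1, a ligand made by basal cells, had 97.3 and 112 CPM against 8.26 and 2.72 CPM (4.26 ± 0.56, adjusted p = 0.00116), and Jag2 had 37.6 and 44.7 CPM against 4.65 and 1.51 CPM (3.75 ± 0.59, adjusted p = 0.00200). All 3 ligands were separated between the fractions in both pools and were called with each library left out. Both null luminal-basal values of Jag1 lay above those of wild-type basal cells, 69.9 and 71.6 CPM, set against 26.2 and 25.5 CPM in wild-type luminal cells (1.45 ± 0.27). The null change exceeded the wild-type one by 1.77 ± 0.38 (unadjusted p = 0.000585, adjusted p = 0.411), which did not pass over all genes. Notch3, a receptor of luminal cells, had 41.0 and 27.5 CPM in luminal-basal cells, against 150.3 and 87.7 CPM in luminal cells (-1.77 ± 0.26, adjusted p = 0.00111). Notch1, the receptor, Hes1, a target gene, and Rbpj, the DNA-binding partner of the receptors, were chosen after their values were seen. Notch1 and Hes1 fell by 1.32 and 1.40, and Rbpj rose by 0.84 (adjusted p = 0.0186, 0.0398 and 0.0408). Notch1 missed the threshold without luminal-basal F84 (-0.74, adjusted p = 0.125) and luminal F84 (-0.89, adjusted p = 0.222), Hes1 without luminal-basal F84, luminal F82 and luminal F84 (-0.75, -1.43 and -1.42, adjusted p = 0.163, 0.212 and 0.166). Without luminal-basal F82 Hes1 was at -2.25. Rbpj missed the threshold with each of the 4 left out (0.60 to 1.04, adjusted p = 0.0631 to 0.402). Leaving out a library, 3 members were higher each time, and 3, 1, 2 and 1 were lower. The median changed sign, to -0.43 without luminal-basal F82 and -0.06 without luminal F82, and was 1.04 without luminal F84.

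Wnt signalling, which sustains basal and stem cells of the gland, was represented by 21 genes, of which 10 were higher and 2 lower in luminal-basal cells, with a median of 2.22. Of the 3 receptors of R-spondin, Lgr5 and Lgr4 rose and Lgr6 did not pass. Lgr5 had 279 and 109 CPM in null luminal-basal cells, against 21.4 and 3.93 CPM in null luminal cells (4.07 ± 0.41, adjusted p = 0.000195). Lgr4 had 153 and 144 CPM against 17.8 and 17.2 CPM (3.08 ± 0.32, adjusted p = 0.000195), with pools that were almost equal. Lgr6, chosen after its values were seen, had 112 and 157 CPM against 77.5 and 26.9 CPM (1.69 ± 0.64, adjusted p = 0.134), and passed without luminal-basal F82 (2.79, adjusted p = 0.000418) but not without luminal-basal F84 (0.34, adjusted p = 0.686). Fzd7, a Wnt receptor, had 414 and 206 CPM against 46.2 and 31.8 CPM (2.94 ± 0.36, adjusted p = 0.000479), and Dkk3, a secreted member of the Dickkopf family, 408 and 185 CPM against 17.0 and 15.1 CPM (4.14 ± 0.49, adjusted p = 0.000712). Lgr5, Lgr4, Fzd7 and Dkk3 did not overlap between fractions, and F82 was the higher luminal-basal pool in each. The 2 lower genes were Wnt4, above, and the R-spondin ligand Rspo1, chosen after its values were seen, with 4.32 and 5.22 CPM in luminal-basal cells against 30.5 and 37.2 CPM in luminal cells (-2.82 ± 0.45, adjusted p = 0.00174). Axin2, a target gene of the pathway chosen after its values were seen, had 10.04 and 34.5 CPM against 2.32 and 2.72 CPM (3.03 ± 0.77, adjusted p = 0.0310), and missed the threshold without luminal-basal F84 (1.78, adjusted p = 0.0823), luminal F82 (3.13, adjusted p = 0.216) and luminal F84 (2.87, adjusted p = 0.256). With a library left out, 13, 8, 5 and 5 members were higher and 3, 3, 3 and 1 lower.

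**Figure D2:**
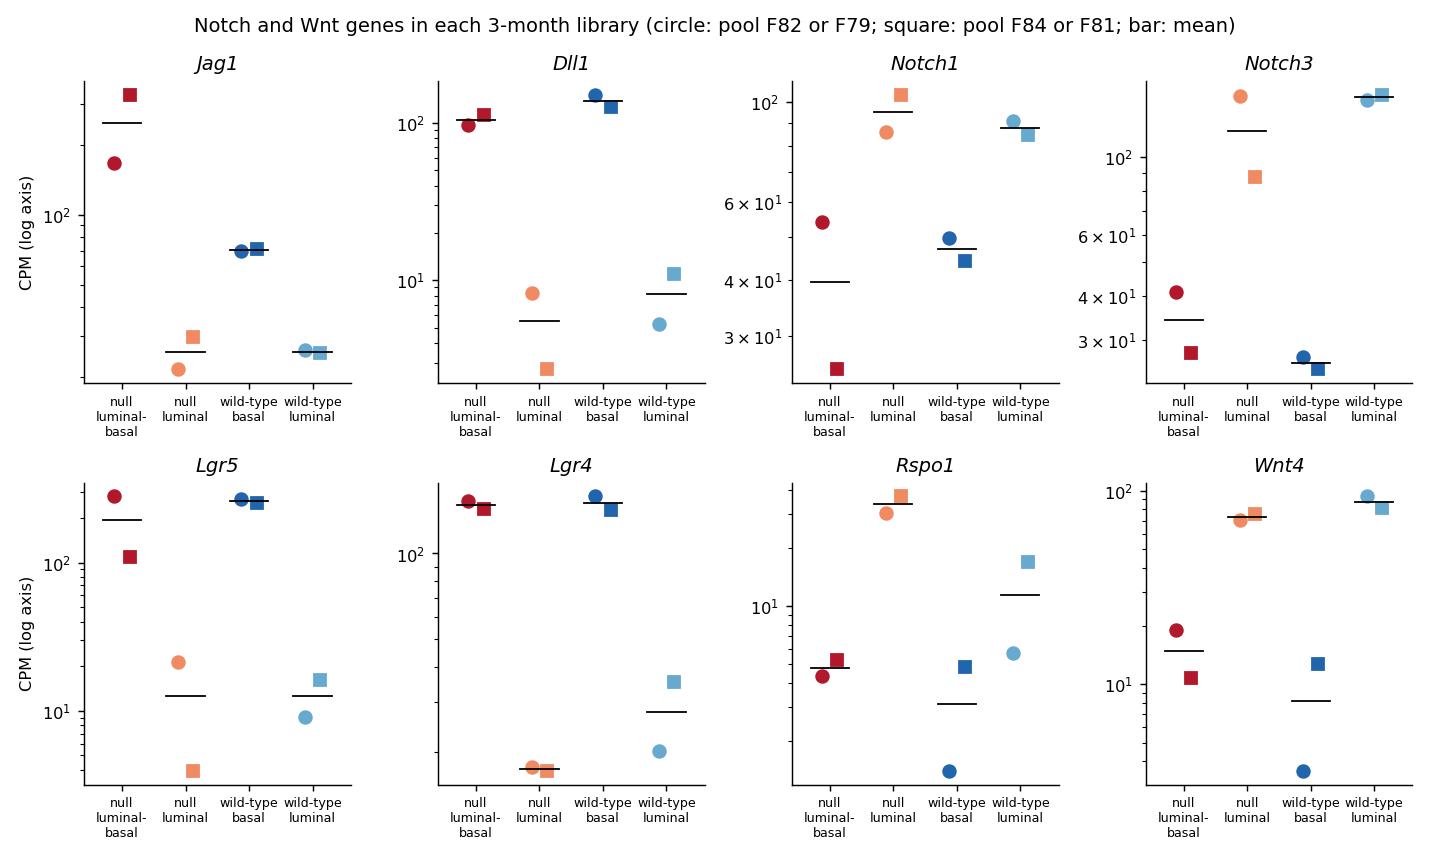
Scaled counts (CPM, vertical log axis) of 4 Notch and 4 Wnt pathway genes in the 3-month epithelial libraries, grouped along the horizontal axis. Circles mark pool F82 or F79, squares F84 or F81, and bars the means. Jag1 in null luminal-basal cells (168 and 327 CPM) lay above wild-type basal cells (69.9 and 71.6 CPM), and Lgr4 lay near the wild-type basal level.

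Among growth factors and their receptors 8 of 22 were higher and 4 lower, with a median of 0.72. Nrg1, the ligand neuregulin, had 17.6 and 165 CPM in null luminal-basal cells, against 3.62 and 9.37 CPM in null luminal cells (3.33 ± 0.46, adjusted p = 0.000824). The F84 luminal-basal library was far the highest. Wild-type basal cells had 5.96 and 13.8 CPM and wild-type luminal cells 0.656 and 1.03 CPM. For Nrg1 the null change minus the wild-type change was -0.15 ± 0.61 (quasi-likelihood test, unadjusted p = 0.814), so the change between fractions was not called different between genotypes. Igfbp2, a binding protein of insulin-like growth factors, had 9.90 and 22.9 CPM in luminal-basal cells, against 0.775 and 0.302 CPM in luminal cells (4.80 ± 0.75, adjusted p = 0.00167), and the related Igfbp3 had 214 and 464 CPM against 11.4 and 16.9 CPM (4.53 ± 0.59, adjusted p = 0.00137). F84 was the higher luminal-basal library for both, and neither overlapped between fractions. Igfbp3 missed the threshold without luminal F82 (4.46, adjusted p = 0.0600) and without luminal F84 (4.57, adjusted p = 0.0586). The 4 lower members were the ligand Areg (amphiregulin) and the receptors Erbb2, Erbb3 and Erbb4, of which Areg, Erbb2 and Erbb4 were chosen after their values were seen. They fell by 3.39, 0.86, 1.56 and 2.97 (adjusted p = 0.00656, 0.0437, 0.0469 and 0.00840). The related receptor Egfr, also chosen after its values were seen, rose by 2.09 ± 0.36 (adjusted p = 0.00289), with 491 and 242 CPM in luminal-basal and 78.2 and 89.8 CPM in luminal cells, and missed the threshold without luminal F82 (1.74, adjusted p = 0.0739). Leaving out a library, 7, 9, 3 and 5 members were higher and 2, 3, 2 and 0 lower. Without luminal F84, where none of the 4 lower members passed, Areg was at -2.58, Erbb2 at -0.79, Erbb3 at -1.07 and Erbb4 at -2.08 (adjusted p = 0.155, 0.253, 0.396 and 0.142). Erbb3 missed it also without luminal-basal F82 (-1.32, adjusted p = 0.136) and luminal F82 (-1.99, adjusted p = 0.0849), Erbb2 with each library left out (adjusted p = 0.0918 to 0.253), and Erbb4 was at -1.95 without luminal-basal F84.

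**Figure D3:**
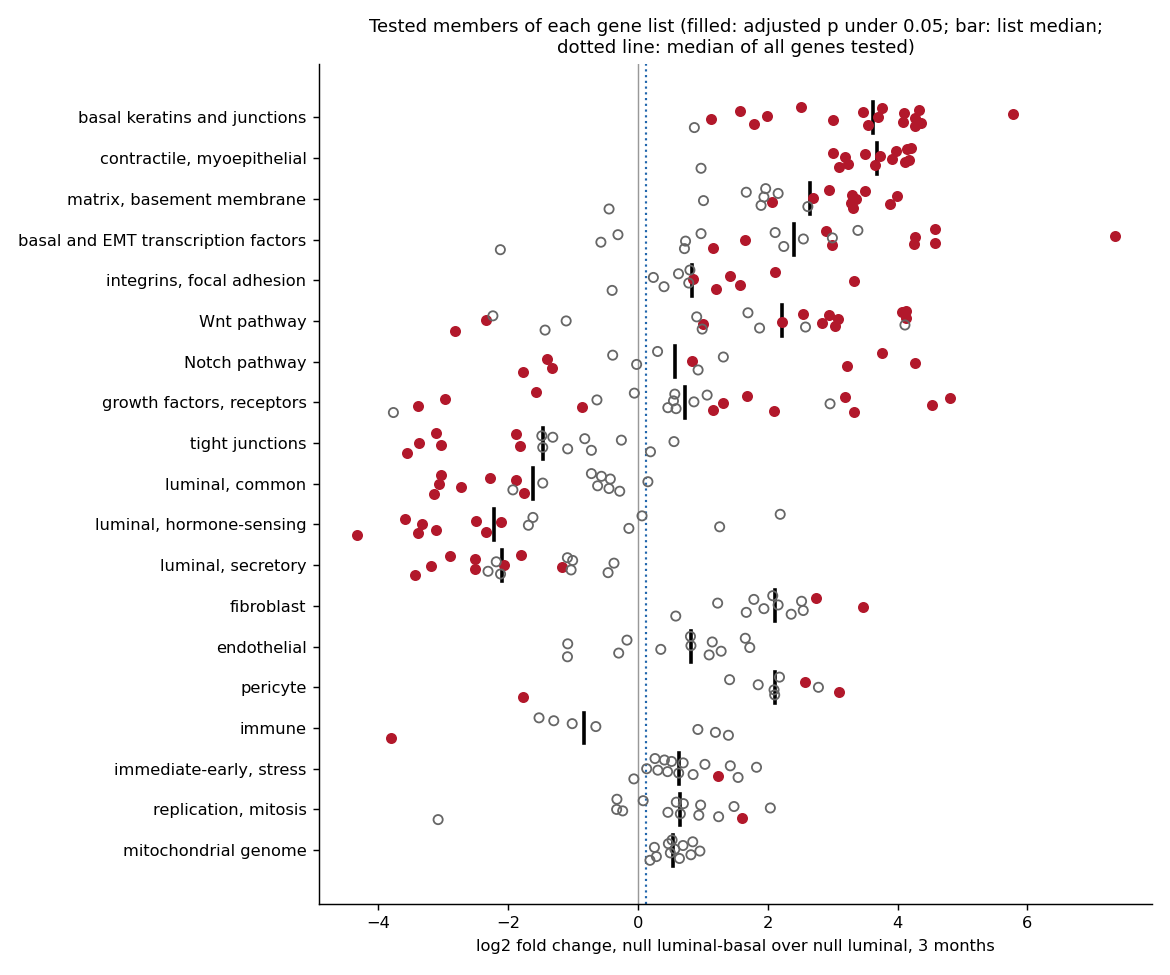
Log2 fold change of null luminal-basal over null luminal cells (horizontal axis) for the tested members of 19 gene lists (vertical axis), with filled points for genes called at an adjusted p under 0.05, open points for the rest, a bar at each list's median and a dotted line at the median of all genes tested, 0.12. Basal keratin and contractile genes lie to the right, luminal and tight junction genes to the left, and fitted values of genes with 0 counts in 1 group, such as Snai2, depend on the prior count.

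The largest rises were in genes that null luminal cells barely expressed, several of them ion channels. Sv2b, a vesicle glycoprotein, had 13.1 and 11.6 CPM in null luminal-basal cells and 0 counts in both null luminal libraries, at least 29.4-fold higher against a floor of 3 counts over the group (adjusted p = 0.00589). Prkg2, a cGMP-dependent protein kinase, had 386 counts in luminal-basal and 1 in luminal libraries, a ratio of scaled counts of 175.5 with a counting interval of 31.3 to 6951. Kcnmb1, a calcium-activated potassium channel subunit of smooth muscle, had 366 counts against 2 (ratio 83.2, interval 22.9 to 690), and Kcnq5, another potassium channel, 450 against 3 (ratio 68.2, interval 23.2 to 332). Cacna1g, a T-type calcium channel, had 47.1 and 14.97 CPM in luminal-basal cells, against 1.03 and 0 CPM in luminal cells (5.74 ± 0.64, adjusted p = 0.000334), and Ephb1, an ephrin receptor, 40.6 and 31.3 CPM against 2.32 and 0 CPM (5.18 ± 0.76, adjusted p = 0.00141). The rule that picked the largest rises took only genes with both luminal-basal libraries above both luminal ones, so that separation is no finding. In wild-type cells the 3 channels were likewise higher in basal cells, by 4.79 ± 0.67, 5.35 ± 0.59 and 3.84 ± 0.46. Mn1, a transcriptional coregulator, Serpinb2, a plasminogen activator inhibitor, Mrc2, a collagen receptor, and Brinp3 completed the 10 largest rises, with ratios of 51.4, 54.6, 48.2 and 38.4 from 2, 2, 2 and 3 luminal counts (intervals 14.1 to 427, 14.9 to 453, 13.2 to 401 and 12.97 to 187). Fitted values moved by over 1.5 times without luminal F82 for Kcnmb1 (9.76), Kcnq5 (10.39), Cacna1g (9.90), Mn1 (9.12), Mrc2 (8.89) and Ephb1 (10.37), and for Ephb1 also without luminal-basal F82 (7.82). Sv2b was lost without luminal F82 (adjusted p = 0.0638), Serpinb2 without luminal F82 or luminal F84 (adjusted p = 0.0502 and 0.204), and Brinp3 without luminal-basal F82, luminal F82 or luminal F84 (adjusted p = 0.0741, 0.225 and 0.0534).

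Cited1, given above, was among the 10 largest falls. Vill, a villin-like actin-binding protein, had 1.39 and 1.86 CPM in null luminal-basal cells, against 25.8 and 24.5 CPM in null luminal cells (-3.95 ± 0.46, adjusted p = 0.000367). Tspan1, a tetraspanin of the cell surface, had 3.07 and 1.16 CPM against 31.8 and 26.6 CPM (-3.86 ± 0.55, adjusted p = 0.00101), and Fam25c 2.79 and 2.32 CPM against 30.2 and 48.1 CPM (-3.93 ± 0.58, adjusted p = 0.00148). These 3 kept their call with each library left out. The rule that picked the largest falls took only genes whose fractions did not overlap. Tmprss13, a transmembrane serine protease, and Slc28a3, a nucleoside transporter, fell by 4.40 and 4.18, with Slc28a3 at 8.79 and 25.8 CPM in luminal-basal cells, against 532 and 244 CPM in luminal cells. Arg1, an arginase, Nxf7, a member of the RNA export factor family, Pcdhac2, a protocadherin whose cluster shares exons, and Faim2, an inhibitor of Fas signalling, fell by 4.02, 4.12, 4.04 and 3.96. These 6 had adjusted p-values of 0.00545, 0.0129, 0.00532, 0.00252, 0.00856 and 0.0496, and each lost its call with 1 or more libraries left out. Without luminal F82 the p-values were 0.0612 for Tmprss13, 0.209 for Slc28a3 and 0.0542 for Nxf7, and without luminal F84 they were 0.266 for Slc28a3, 0.0836 for Arg1, 0.0982 for Pcdhac2 and 0.337 for Faim2. Faim2 also missed the threshold without either luminal-basal library (adjusted p = 0.116 and 0.0868). Without luminal-basal F84 the fold change of Tmprss13 was -7.01 and that of Slc28a3 -6.28.

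Basal and luminal cells of wild-type glands served to show how far the null fractions resembled the normal layers. Wild-type basal cells differed from wild-type luminal cells in 2467 genes (16.8%), with 1531 higher (10.4%) and 936 lower (6.36%). Of the genes higher in null luminal-basal cells 993 were also higher in wild-type basal cells, which is 77.5% of the null and 64.9% of the wild-type calls. Of the lower genes 374 were shared, which is 77.3% of the null and 40.0% of the wild-type calls. Over the 2864 genes called in either genotype the fold changes correlated across genes at r = 0.853, and over all genes tested at r = 0.686, where genes are not independent replicates. The 936 genes that were lower in wild-type basal cells had a median of -1.31 in null and -2.39 in wild-type glands, and 838 of them had the smaller fall in null glands. The 1531 genes that were higher had medians of 1.84 in null and 2.16 in wild-type glands, and 1036 had the smaller rise in null glands. These genes were picked by their wild-type values, so these counts are a description. The 1 gene called in opposite directions was Gca, the calcium-binding protein grancalcin, with 149.5 and 108 CPM in null luminal-basal and 40.0 and 50.2 CPM in null luminal cells (1.52 ± 0.42, adjusted p = 0.0398), against 1.59 and 8.14 CPM in wild-type basal and 37.2 and 36.3 CPM in wild-type luminal cells (-3.03 ± 0.47, adjusted p = 0.00135). Its null call was lost without luminal-basal F82 (1.13, adjusted p = 0.135), luminal F82 (1.24, adjusted p = 0.338) and luminal F84 (1.76, adjusted p = 0.153).

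**Figure D4:**
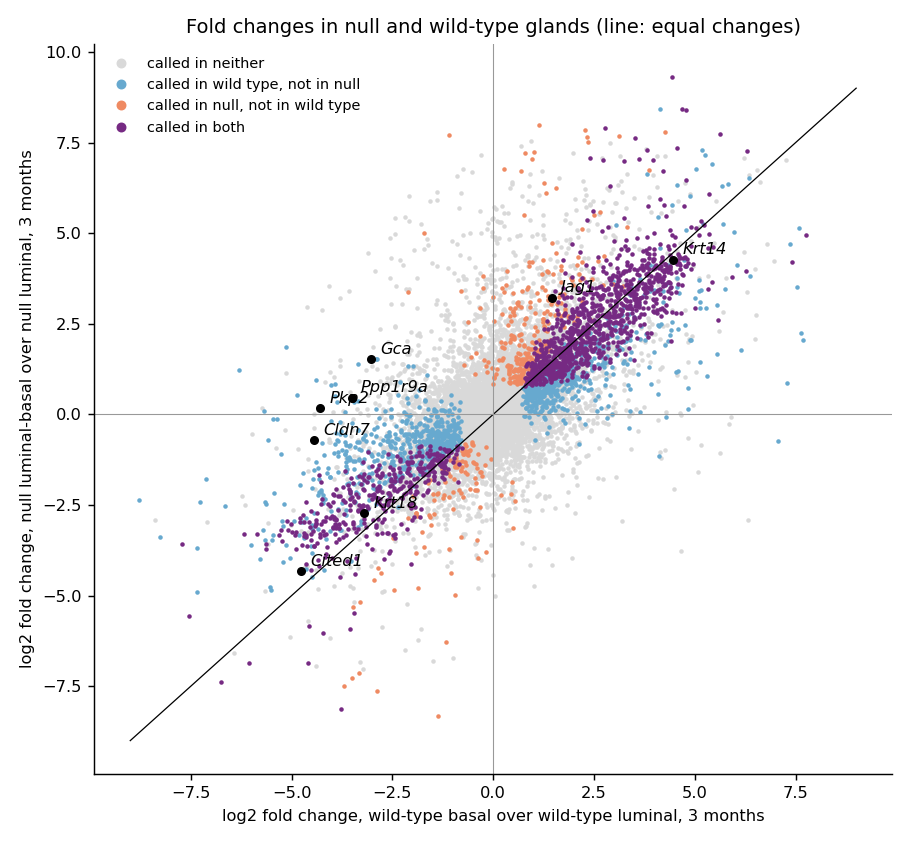
Log2 fold change of null luminal-basal over null luminal cells (vertical axis) against that of wild-type basal over wild-type luminal cells (horizontal axis) for 14718 genes, coloured by the comparison in which each was called, with a line at equal changes. Fold changes correlated at r = 0.853 over the 2864 genes called in either genotype, which does not measure closeness to the line. Of genes picked by their wild-type call, 838 of 936 lower ones had the smaller fall and 1036 of 1531 higher ones the smaller rise in null glands. Ppp1r9a, Pkp2, Cldn7 and Gca lie to the left of the line, low in wild-type basal but not in null luminal-basal cells.

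A direct test of the difference between the 2 changes called 2 genes (0.0136%), both relatively higher in null luminal-basal cells, and 709 genes (4.82%) had an unadjusted p under 0.05. Ppp1r9a, the actin-binding scaffold neurabin-1, had 93.3 and 99.1 CPM in null luminal-basal and 78.2 and 62.6 CPM in null luminal cells, against 2.98 and 5.45 CPM in wild-type basal and 48.8 and 50.6 CPM in wild-type luminal cells. Pkp2, the desmosomal plaque protein plakophilin 2, had 56.1 and 52.0 CPM in null luminal-basal and 33.8 and 64.7 CPM in null luminal cells, against 2.78 and 1.23 CPM in wild-type basal and 35.1 and 36.0 CPM in wild-type luminal cells. Of the 8 epithelial libraries of this age, the wild-type basal ones alone were low in both genes. The differences were 3.97 ± 0.42 (adjusted p = 0.0112) and 4.46 ± 0.57 (adjusted p = 0.0404). Without a library the number of such genes was 52 (luminal-basal F82), 338 (luminal-basal F84), 0 (luminal F82), 0 (luminal F84), 0 (wild-type basal F79), 2 (basal F81), 0 (wild-type luminal F79) and 2 (luminal F81). Lrrc8b, an anion channel subunit, came next on that side with 2.79 ± 0.46 (adjusted p = 0.135), after Cldn7 and Gca (4.55 ± 0.63, adjusted p = 0.0692). On the other side Gcc1, a Golgi protein, had 59.3 and 38.5 CPM in null luminal-basal and 47.5 and 41.1 CPM in null luminal cells, against 246 and 184 CPM in wild-type basal and 31.5 and 41.0 CPM in wild-type luminal cells (-2.47 ± 0.40, adjusted p = 0.135). Only the wild-type basal libraries were high. Fignl2, Kctd11, Lhfpl2 and Rgl3 gave -2.93 ± 0.54, -1.83 ± 0.42, -1.60 ± 0.41 and -3.57 ± 0.95, with adjusted p-values of 0.242, 0.466, 0.544 and 0.592.

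The 12-month-old null pool A6, which the tests above did not use, gave the same direction for most called genes. Of the 1281 genes higher in luminal-basal cells at 3 months 1160 (90.6%) were higher in the A6 luminal-basal than in its luminal library, against 45.6% of all genes tested, and of the 484 lower genes 434 (89.7%) were lower, against 52.2% of all. CPM of the 12-month libraries were scaled over all 26 libraries, and those of 3 months over the 12 libraries of that age. The A6 luminal-basal library had reads in 14756 genes and the A6 luminal library in 17939. Krt5 had 1918 CPM in A6 luminal-basal and 77.3 CPM in A6 luminal cells, and Acta2 had 1661 and 86.7 CPM. Prlr had 217 CPM in A6 luminal-basal and 2645 CPM in A6 luminal cells. Ppp1r9a had 137 and 45.3 CPM, Pkp2 31.1 and 52.2 CPM, and Cldn7 33.8 and 22.6 CPM, so that all 3 were again present in luminal-basal cells. Itga5, Notch1, Cldn1 and Des went the other way in A6, with log2 differences of -0.20, 1.02, 1.40 and -1.29 (prior count 2), and Fignl2, lower at 3 months (-2.40), was level in A6 at 6.53 CPM in luminal-basal and 6.505 CPM in luminal cells. Snai2 had 0 counts in both A6 libraries. This is 1 pool with no replicate and no test. The other 12-month-old null pool, A5, had a luminal-basal library that went against its label. Krt14 was at 34.8 CPM in A5 luminal-basal and 38.1 CPM in A5 luminal cells, Krt5 at 57.1 and 57.4 CPM, and Acta2 at 180 and 100 CPM. The fibroblast genes Mmp2 and Serpinf1 were at 458 and 773 CPM in A5 luminal-basal, against 8.88 and 13.8 CPM in A5 luminal cells. Under its labels 79.5% of the 1281 higher and 91.1% of the 484 lower genes of the 3-month comparison had the same direction in A5, against 46.1% and 53.5% of all genes tested. Since these keratins were not raised in the A5 library, the shared directions do not replicate the luminal-basal fraction.

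Genes of other cell types were examined because the luminal-basal gate could hold such cells. Of 12 fibroblast genes, 3 of which also stand in the matrix list, 2 were higher and none lower, with a median of 2.12, and the counts of higher genes were 1, 12, 1 and 1 with a library left out. Mmp2, a gelatinase, had 180 and 99.6 CPM in null luminal-basal cells, against 12.4 and 12.7 CPM in null luminal cells (3.46 ± 0.40, adjusted p = 0.000334), and was called also without luminal-basal F82 (2.82). Serpinf1, a secreted serpin, had 248 and 32.1 CPM against 16.8 and 15.7 CPM (2.74 ± 0.68, adjusted p = 0.0308), and missed the threshold without luminal-basal F82 (1.01, adjusted p = 0.0612), luminal F82 (adjusted p = 0.373) and luminal F84 (adjusted p = 0.122). Without luminal-basal F82 the list's median was -0.59 and 2 of its genes were lower, and the median was 3.52 without luminal-basal F84 and 1.06 without luminal F82.

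None of 12 endothelial genes passed (median 0.81), with sums of 165.9 and 36.3 CPM in luminal-basal and 55.0 and 46.9 CPM in luminal cells, and 4 passed without luminal-basal F84. Their median was -0.58 without luminal-basal F82, 1.48 without luminal-basal F84 and 0.53 without luminal F82. Pecam1, Flt1, Cdh5 and Eng, endothelial surface genes, had fold changes of 0.35, 0.82, 1.14 and 1.10. Of 9 tested pericyte genes, of which Des and Notch3 also stand in the contractile and Notch lists, Mcam and Des were higher (2.58 ± 0.51 and 3.10 ± 0.81, adjusted p = 0.01002 and 0.0286) and Notch3 lower, and Mcam, an adhesion molecule that smooth muscle also carries, was at 84.8 and 84.6 CPM in luminal-basal cells, against 16.3 and 13.3 CPM in luminal cells. Des, the intermediate filament desmin, had 11.7 and 1.62 CPM against 1.03 and 0.302 CPM, and lost its call without luminal-basal F82 (adjusted p = 0.209), luminal F82 (0.368) and luminal F84 (0.111). Mcam lost it without luminal F82 (0.163) and luminal F84 (0.0662). The higher pericyte genes numbered 1, 6, 0 and 0 with a library left out.

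The lists of immune, adipocyte, muscle and Schwann cell genes held 2 called genes, both lower in luminal-basal cells. Over all genes tested 3.29% were called lower. Immune genes summed to 56.9 and 53.4 CPM in luminal-basal and 64.3 and 19.1 CPM in luminal cells, and 1 of 8 tested passed, Csf1r, a macrophage receptor, lower on 2 counts in luminal-basal and 16 in luminal libraries (17.6-fold, interval 4.14 to 158, adjusted p = 0.0407, lost with each library left out at -5.09 to -3.53 and adjusted p = 0.0610 to 0.322). Ptprc, the common leukocyte antigen, had 5 and 7 counts in luminal-basal and 33 and 0 in luminal libraries. Cd74, another immune gene, went the other way from Csf1r, with 27.05 and 37.25 CPM in luminal-basal and 23.76 and 9.98 CPM in luminal cells. It did not pass, and was at 2.24 without luminal-basal F82 and -0.07 without luminal-basal F84. The median of the immune list was -0.83, but 0.21 without luminal-basal F82 and 1.27 without luminal F82. The adipocyte genes Fabp4 and Lpl stood highest in luminal-basal F82. Fabp4 had 99.2 and 13.5 CPM in luminal-basal and 21.7 and 18.8 CPM in luminal cells, Lpl had 83.4 and 8.12 CPM against 11.1 and 24.5 CPM, and Adipoq, which defines adipocytes, had 5 and 1 counts against 0 and 7. None of 3 adipocyte genes and none of 8 muscle genes passed. Among defining muscle genes, luminal-basal libraries had 10 and 0 counts of Acta1, 5 and 0 of Ckm, and 13 and 10 of Myh4. Luminal libraries had 3 and 0 counts of Acta1, 0 and 0 of Ckm, and 3 and 0 of Myh4. Of 8 genes on the Schwann cell list only Erbb3, the neuregulin receptor given above, passed. The part of these cell types in the results was not tested.

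**Figure D5:**
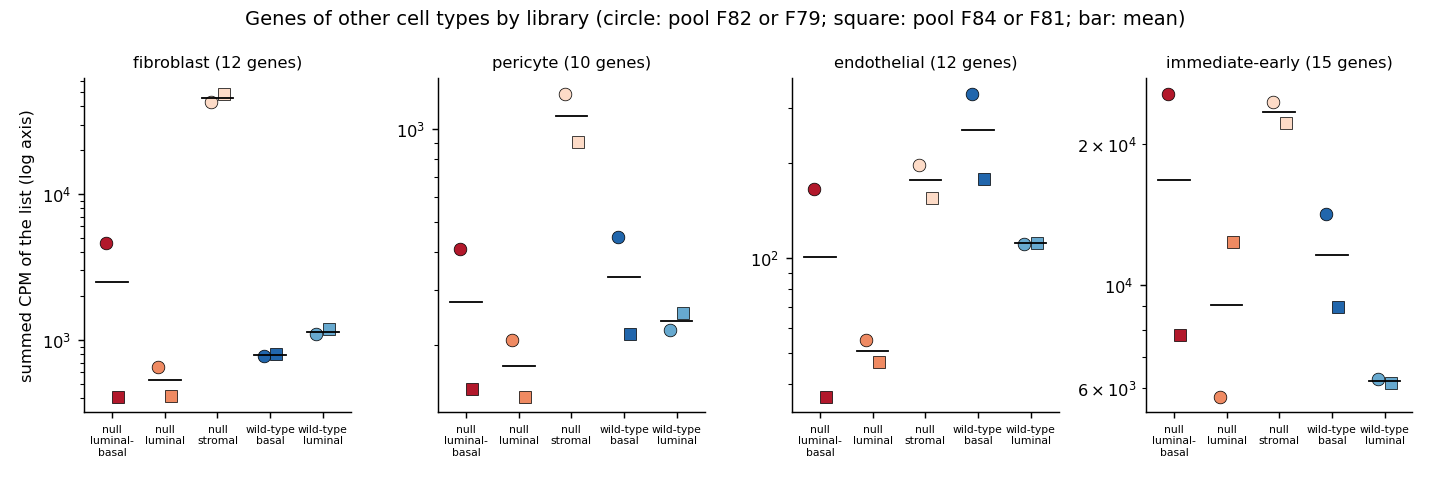
Summed CPM (vertical log axis) of the fibroblast, pericyte, endothelial and immediate-early gene lists in the 3-month libraries other than wild-type stroma, grouped along the horizontal axis. Circles mark pool F82 or F79, squares F84 or F81, and bars the means. The F82 luminal-basal library lies above that of F84 in all 4 panels, and at 4607 CPM of fibroblast genes it lies between the epithelial libraries and null stroma.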

How the data were processed

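RNA of sorted mammary fractions (5 ng a library) was amplified with the NuGEN Ovation V2 system before TruSeq Nano library preparation, per the labels' protocols. The authors deposited 1 table of raw counts per gene for 26 libraries, and TopHat2 2.0.13, HTSeq and GRCm38 are named in the submitters' processing notes. The sources used here do not give the strand setting or annotation of the counting, so overlapping and antisense genes cannot be told apart. Amplified reads carry no molecular identifiers, so counting intervals (95%, exact) and floors of 3 counts cover counting error only.

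The 12 libraries of 3-month-old mice (6 groups of 2 pools) were fitted together with edgeR 4.0.16 in R 4.3.3. Genes passed filterByExpr (count minimum 10, total minimum 15), which left 14718 of 45706. The fit used TMM factors, a coefficient for each group, the pool as a block and a robust quasi-likelihood test with 4 residual degrees of freedom. SE is the size of the log2 fold change divided by the square root of F. Coordinates were matched to GENCODE for 14663 of the genes tested. Libraries whose names share a prefix were taken as fractions of 1 pool of 3 mice, since cells were pooled before sorting per the labels. Deviations from the group means correlated at 0.271 between the luminal-basal and luminal libraries of a null pool and at 0.137 between the wild-type basal and luminal ones. With the stromal libraries of the same pools they correlated at 0.148 (luminal-basal) and 0.252 (luminal) in null and at 0.125 (basal) and -0.0265 (luminal) in wild-type glands, so the pairing rests on the shared mice.

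Named genes were Snai2, Snai1, Krt5, Krt14, Krt18, Krt8, Trp63 and Acta2, the 10 largest rises and falls of called genes whose fractions did not overlap and whose higher group averaged 10 CPM or more, up to 4 members of each of 22 gene lists by smallest p, and the 5 smallest p each way of the difference between genotypes. The compared libraries, the lists and the rule were chosen with earlier results of these data known. The fit was tested on simulated data of 13870 genes for this comparison. It called 66 of 67 genes changed by a log2 value of 4, and 43 of 65 changed by 2. It also called 6 of 68 changed by 1, and 10 unchanged genes. Apart from the set changes, each simulated gene had 1 mean and 1 spread in all groups, with no difference between pools. Changed genes were drawn only from those averaging over 5 CPM, so the detection counts do not cover genes with fewer reads. In the data the luminal-basal pair correlated less (r = 0.911) than the luminal pair (r = 0.951), which the simulation does not cover. Alternatives were a fit without the block, with all 26 or 24 libraries, with only the libraries compared, RLE scaling, no filter on low counts, DESeq2 1.42.0, and each library left out.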

Additional observations from a re-analysis of the deposited data

Results flagged for a closer look

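Ppp1r9a and Pkp2 were picked out because the change between the fractions differed between null and wild-type glands by a test of the difference itself. The difference was 3.97 on the log2 scale for Ppp1r9a (edgeR quasi-likelihood test, adjusted p = 0.0112) and 4.46 for Pkp2 (adjusted p = 0.0404). Both null pools had a larger luminal-basal over luminal value than both wild-type pools had basal over luminal. Ppp1r9a was no longer called without null luminal F82 (4.12, adjusted p = 0.170), null luminal F84 (3.83, 0.113), wild-type basal F79 (3.596, 0.0773) or wild-type luminal F79 (3.91, 0.0868). Pkp2 was no longer called without those 4 libraries (3.94, 5.06, 5.03 and 4.72, adjusted p = 0.379, 0.107, 0.0773 and 0.150) nor without wild-type basal F81 (3.82, 0.347) or wild-type luminal F81 (4.18, 0.163). The gates of the null luminal-basal and the wild-type basal fraction carry different names in the labels, so genotype and gate cannot be told apart.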

How the results depend on the processing

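The fit called 1765 genes, 1281 higher and 484 lower. Without the replicate block that pairs the fractions of a pool it called 1476 (1090 higher, 386 lower), and 13 of 81 called named genes lost their call there, against 61 of 81 with all 26 libraries and, with only the libraries compared, 4 of 78 with the block and 24 of 78 without it. With all 26 libraries, 393 genes were called (317 higher, 76 lower); with only the libraries compared, 848 were higher with the block, and without it 476 were called (365 higher, 111 lower). With no filter on low counts 1981 were higher. With a library left out, totals ran from 737 to 2652, higher genes from 521 to 2018 and lower genes from 146 to 634. The cause of these shifts was not tested. RLE scaling, DESeq2 and 24 libraries gave totals within 1.5 times. The difference between genotypes, called in 2 genes, gave 0 with all 26 libraries, 4 and 0 with only the libraries compared with and without the block, 1 with RLE, 198 with no filter, 15 with DESeq2, and 0 to 338 with a library left out.

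Of the 81 called named genes, 51 were called with each of the 4 libraries left out and 16 in every alternative. Genes that changed sign were not called: with a library left out, values ran from -0.66 to 1.25 for Pecam1, -0.19 to 1.62 for Flt1, -0.37 to 2.03 for Eng, -0.40 to 2.14 for Fabp4, -1.09 to 2.43 for Lpl, -3.53 to 2.47 for Cidec, -0.046 to 0.39 for Ttn, -0.0998 to 0.67 for Mb, -2.79 to 2.57 for Tnnt3, -0.40 to 0.78 for Pkp2, -0.12 to 0.30 for Lrrc8b, -0.23 to 0.42 for Gcc1 and -0.21 to 0.49 for Lhfpl2. Tnnt3 was at -0.0856 with DESeq2 and Lrrc8b at -5.20e-05 with only the libraries compared and the block. With 2 pools a group and null luminal libraries of 2951035 and 3085895 counts, falls of genes near 3 counts could not be measured.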

Other observations

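Cell cycle genes summed highest in luminal-basal F84 of the 8 epithelial libraries of 3-month-old mice. The 17 genes of DNA replication and mitosis summed to 252.1 and 536.5 CPM in null luminal-basal cells, against 148.0 and 228.6 CPM in null luminal cells, and 205.3 and 137.6 CPM in wild-type basal cells. Only 1 gene of 15 tested was called, while 8.70% of all genes tested were called higher, and the list median was 0.65. This gene was Pcna, the replication clamp, with 182 and 156 CPM in null luminal-basal cells, against 46.2 and 67.1 CPM in null luminal cells (1.60 ± 0.28, adjusted p = 0.00293 by edgeR). It lost its call without luminal F82 (1.29, adjusted p = 0.0801), and the list had 4, 1, 0 and 1 higher genes with luminal-basal F82, luminal-basal F84, luminal F82 and luminal F84 left out, and medians of 1.39, -0.62, 1.25 and 0.26.

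Immediate-early genes gave 1 call of 15, while 8.70% of all genes tested were called higher, so this count is no finding about the list. The call was Nr4a1, an orphan nuclear receptor, with 392 and 145 CPM in null luminal-basal and 93.2 and 114 CPM in null luminal cells (1.23 ± 0.35, adjusted p = 0.0433). It missed the threshold without luminal-basal F82 (0.54) and luminal F82 (0.56), and was at 1.86 without luminal F84. The list median was -0.40 without luminal-basal F82 and 1.51 without luminal-basal F84. Transcripts of the mitochondrial genome gave no call among 12, with a median of 0.55 and sums of 29430 and 23080 CPM in null luminal-basal and 15630 and 18040 CPM in null luminal cells.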
